A study of Sus scrofa with 16 samples.

Results

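TSTD1, CAV2, AJAP1, ZFR2, HTATIP2, AMY2, SEZ6L and GPX1 are 8 nuclear genes, taken as not imprinted, among the 28232 genes of the expression table of porcine embryonic stem cells on their way to midbrain dopaminergic neurons. They were chosen by their measured read counts, because their RNA was higher in cells of a parthenogenetic line (PA cells) than in cells of a line from an in vitro fertilised embryo (IVF cells) at each of the 4 sampled days. The PA against IVF difference is therefore given as a description, with no test. What could be tested was how each gene changed between days within a line, how far those changes differed between the lines, and whether the genes next to them and of the same families also differed. The comparison of changes between the lines draws on the same levels as the choice of genes.

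Poly-A RNA was sequenced from 16 libraries, 2 for each line at day 0 (undifferentiated stem cells), day 16, day 28 and day 45. Both lines were grown in FIW medium, which holds FGF2, IWR-1 and WH-4-023, and both followed the same schedule, on Matrigel until day 16 and then on poly-L-ornithine, laminin and fibronectin. The medium held Noggin, SHH, SB431542 and CHIR99021 from day 0 and FGF8 on day 9. It held FGF8b, ascorbic acid and BDNF from day 11, with DAPT, GDNF and db-cAMP in terminal culture from day 16. The IVF cells were all of the line IVF_1_ pESC_FIW and the PA cells all of the line PA_3_ pESC_FIW. With 1 line for each embryo origin, origin and line cannot be told apart, and any difference below is between these lines. Whether the 2 libraries of a group came from separate cultures is not stated, so p-values measure only the spread between these libraries.

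Library totals ran from 39247693 to 52165867 counts, and 3 counts in a library equalled 0.0575 to 0.0764 CPM, counts scaled to library size. Replicates differed by more than counting noise, most in PA cells at day 45, with a median chi-square of 14.4 against 0.455 from counting alone. The summed level of the pluripotency markers was 2214 to 2513 CPM in the 4 day 0 libraries and 71.8 to 222.5 CPM in the others. SOX2 made up most of the latter, with group means from 72.4 to 149.9 CPM. After day 0, PRDM14, ZFP42 and TDGF1 had 0 counts, and POU5F1 averaged at most 0.0209 CPM. TH, which makes the precursor of dopamine, was at 0 counts in both lines at day 0. In IVF cells it stood at 4.40 ± 0.289 CPM at day 16, 24.6 ± 0.671 at day 28 and 68.7 ± 12.3 at day 45 (SD, n = 2). In PA cells it stood at 15.7 ± 0.918, 56.3 ± 5.07 and 42.7 ± 1.18 CPM on the same days. PITX3, a transcription factor of midbrain dopaminergic neurons, stayed at or below 1.99 CPM in every group mean. These are bulk libraries, in which fewer cells of a type and less RNA per cell cannot be told apart.

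A parthenogenetic embryo starts from an activated oocyte without a sperm, so its genome is wholly maternal. Imprinted genes are read from the copy of a single parent and are known to differ between parthenogenetic and fertilised cells. TSTD1 is a small protein with a rhodanese domain, the fold of enzymes that transfer sulfur from thiosulfate. CAV2 is a caveolin, which forms membrane pits called caveolae together with CAV1. AJAP1 is a transmembrane protein of adherens junctions. ZFR2 is a zinc finger RNA-binding protein of the ZFR family. HTATIP2, also known in human as TIP30 and as a binding partner of the viral Tat protein, is related to short-chain dehydrogenases and has been described as a tumour suppressor. AMY2 is pancreatic alpha-amylase, which cuts starch. SEZ6L is a neuronal transmembrane protein of the SEZ6 family, whose members are cut by the protease BACE1. GPX1 is a selenoprotein, the cytosolic glutathione peroxidase that removes hydrogen peroxide.

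The genes lie on 6 chromosomes of the Sscrofa11.1 assembly, and no pair of them was adjacent. TSTD1 (chromosome 4, 89401320 to 89402741, plus strand) and AMY2 (chromosome 4, 115172036 to 115209749, minus strand) share a chromosome, as do ZFR2 (chromosome 2, 74845912 to 74899121, plus strand) and HTATIP2 (chromosome 2, 39035337 to 39052178, minus strand). CAV2 (chromosome 18, 29699012 to 29707277, minus strand), AJAP1 (chromosome 6, 65847985 to 65952377, plus strand), SEZ6L (chromosome 14, 43802482 to 44001643, plus strand) and GPX1 (chromosome 13, 31916269 to 31917337, minus strand) stand alone. The antisense gene LOC106510114 overlaps TSTD1 and had 0 to 6 counts per library. AMY2 overlaps the amylase model LOC100521789 on the same strand, so reads of the amylase copies may have been divided between them and its values are uncertain.

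The gene starts of 5 members are shown because these genes gave the clearest patterns over time: TSTD1 and CAV2 had 0 counts in every IVF library at days 0, 16 and 45, and AJAP1, ZFR2 and HTATIP2 rose and fell together in IVF cells. Each window runs from 250 bases before the annotated start to 50 after it, read from the RefSeq Sscrofa11.1 genome on the strand of the gene, 5′ to 3′, with CG dinucleotides (CpG) in capitals. The windows are chr4:89401070-89401369 (plus strand), chr18:29707228-29707527 (minus strand), chr6:65847735-65848034 (plus strand), chr2:74845662-74845961 (plus strand) and chr2:39052129-39052428 (minus strand).
TSTD1: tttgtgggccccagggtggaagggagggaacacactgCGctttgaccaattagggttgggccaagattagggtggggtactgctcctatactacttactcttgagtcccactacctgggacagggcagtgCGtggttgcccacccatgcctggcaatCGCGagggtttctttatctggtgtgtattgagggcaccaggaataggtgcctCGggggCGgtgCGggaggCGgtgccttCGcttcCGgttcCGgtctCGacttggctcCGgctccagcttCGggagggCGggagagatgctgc
CAV2: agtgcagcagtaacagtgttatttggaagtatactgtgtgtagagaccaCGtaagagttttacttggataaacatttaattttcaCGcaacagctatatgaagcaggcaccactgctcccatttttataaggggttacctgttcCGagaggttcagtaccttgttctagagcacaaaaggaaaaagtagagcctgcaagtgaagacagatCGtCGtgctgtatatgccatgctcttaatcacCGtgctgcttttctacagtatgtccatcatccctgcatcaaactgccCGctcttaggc
AJAP1: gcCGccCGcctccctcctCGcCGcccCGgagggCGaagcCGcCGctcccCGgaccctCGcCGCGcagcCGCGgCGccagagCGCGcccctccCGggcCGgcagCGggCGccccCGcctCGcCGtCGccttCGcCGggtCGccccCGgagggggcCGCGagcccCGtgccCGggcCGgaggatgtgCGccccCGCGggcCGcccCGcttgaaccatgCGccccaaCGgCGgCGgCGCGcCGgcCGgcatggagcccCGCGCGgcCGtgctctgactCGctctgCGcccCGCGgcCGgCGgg
ZFR2: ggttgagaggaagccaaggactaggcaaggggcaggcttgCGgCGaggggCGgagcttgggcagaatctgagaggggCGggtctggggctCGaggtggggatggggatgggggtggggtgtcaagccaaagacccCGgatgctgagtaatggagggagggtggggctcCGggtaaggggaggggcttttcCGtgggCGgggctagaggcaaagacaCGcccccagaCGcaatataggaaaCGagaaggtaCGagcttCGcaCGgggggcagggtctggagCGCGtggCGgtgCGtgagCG
HTATIP2: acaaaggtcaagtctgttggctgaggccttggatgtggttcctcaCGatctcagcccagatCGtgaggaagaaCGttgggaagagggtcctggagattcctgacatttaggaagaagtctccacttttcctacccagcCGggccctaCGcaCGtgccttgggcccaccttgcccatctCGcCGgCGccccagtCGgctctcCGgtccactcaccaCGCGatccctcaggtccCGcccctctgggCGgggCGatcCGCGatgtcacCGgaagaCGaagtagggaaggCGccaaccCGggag

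The capitals show how unlike these starts are. CAV2 had 7 CpG in 300 bases, as did AMY2, and 19.2% of the 15864 promoters examined had fewer. AJAP1 had 57, more than 99.0% of promoters, at a GC content of 85.3%. TSTD1 had 15, SEZ6L 17, ZFR2 20, HTATIP2 22 and GPX1 29, around the median of 20 over all promoters. A GC content of at least 50% with an observed to expected CpG ratio of at least 0.6 was met by 4 of the 8 (GPX1, ZFR2, HTATIP2 and AJAP1) and by 60.2% of all promoters. On either strand, GGGCGG (GC box) was in 5 of 8 windows against 58.7% of all, CCAAT in 2 (TSTD1 and SEZ6L) against 35.1%, and TATAAA in 1 (CAV2) against 8.40%. The window of AMY2 lies inside the amylase model LOC100521789, on the same strand and away from the start of that model. It may be part of the body of an amylase gene, so its CpG and motif counts may not describe a promoter. DNA methylation was not measured in these libraries.

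**Figure D1:**
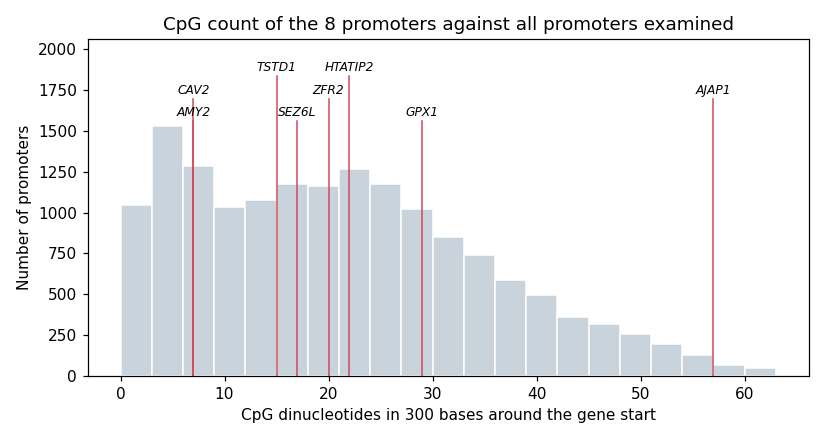
Number of CpG dinucleotides in the 300 bases around the gene start (horizontal axis) for the 15864 promoters examined (grey bars, number of promoters on the vertical axis), with the 8 genes as red lines. The genes spread from 7 (CAV2 and AMY2) to 57 (AJAP1) on both sides of the median of 20. The window of AMY2 lies inside another amylase model and may not be a promoter.

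In all 8 genes both PA libraries lay above both IVF libraries on each of the 4 days, which is what the choice of genes asked for. The same order held for 547 of the 18528 genes tested (2.95%), and the opposite order for 436 (2.35%). When the call (at least 2-fold, adjusted p below 0.05) was required as well, 83 genes (0.448%) were higher in PA cells on all 4 days and 63 (0.340%) lower, and the 8 genes are among the 83. The narrowest gaps were those of SEZ6L at day 45, where the lower PA library was 1.97 times the higher IVF library, AJAP1 at day 16 (2.10 times) and GPX1 at day 28 (2.23 times). TSTD1 and CAV2 passed the filter on low counts through their PA libraries.

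**Figure D2:**
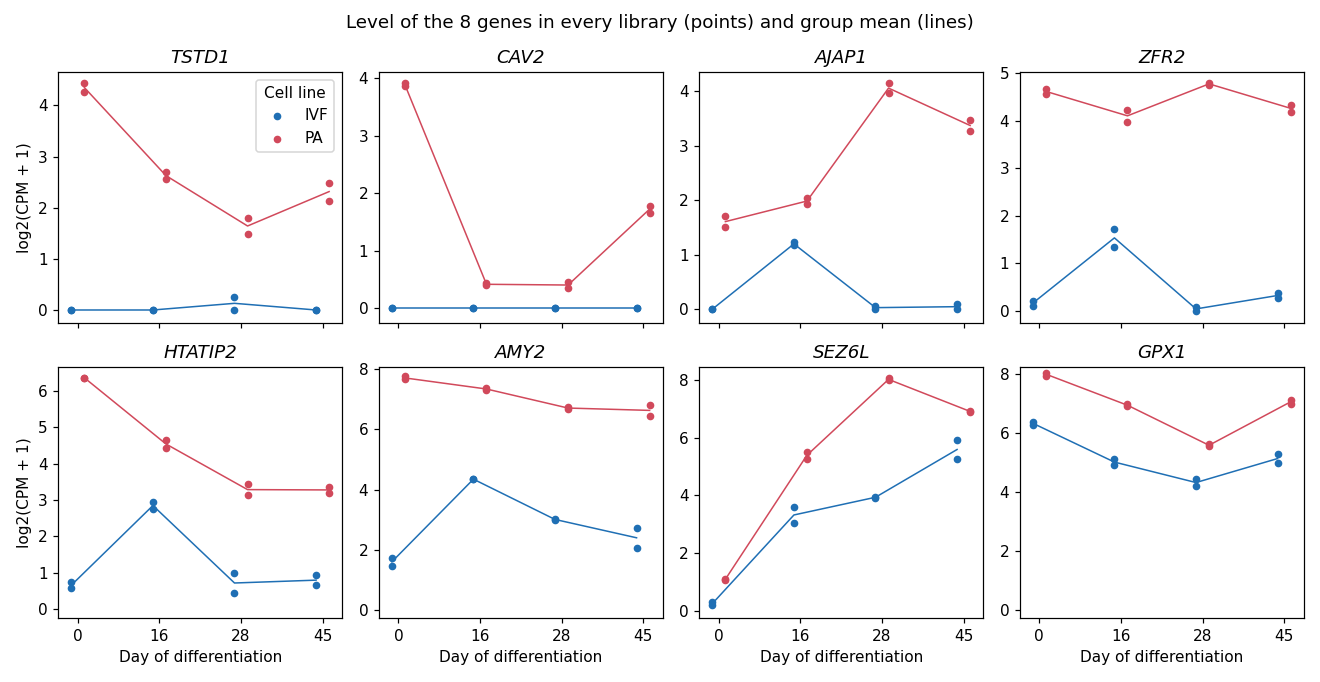
Level of each gene as log2(CPM + 1) (vertical axis, a separate scale for each gene) at days 0, 16, 28 and 45 (horizontal axis) in IVF cells (blue) and PA cells (red), with a point for each of the 2 libraries and a line through the group means. On each day the red points lie above the blue ones of that day in every panel, and AJAP1, ZFR2, HTATIP2 and AMY2 share a peak of the blue line at day 16.

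On the TPM scale, which accounts for gene length and so allows a comparison between genes, the levels in PA cells spanned a wide range. At day 0 GPX1 averaged 551.7 TPM, AMY2 199.6, HTATIP2 87.1, TSTD1 56.2, ZFR2 9.29, CAV2 7.85, AJAP1 1.03 and SEZ6L 0.286. At day 28 SEZ6L had reached 98.8 TPM, below GPX1 (154.5) and AMY2 (152.4), whose libraries overlapped. CAV2 was then lowest of the 8, at 0.272 TPM.

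TSTD1 was found in PA cells only, apart from 10 counts in a single IVF library. In PA cells it stood at 18.2 and 20.6 CPM at day 0, 4.91 and 5.47 at day 16, 2.49 and 1.79 at day 28 and 4.63 and 3.40 at day 45. In IVF cells it had 0 counts in 7 of 8 libraries and 0.198 CPM in replicate 1 of day 28. Against a floor of 3 counts over the IVF group, PA cells were at least 483.5-fold higher at day 0, at least 163-fold higher at day 16 and at least 128-fold higher at day 45, and the ratio at day 28 was 21.6, resting on those 10 counts. Within PA cells TSTD1 fell to day 16 (log2 fold change -1.90 ± 0.39, SE, adjusted p = 0.00129) and again to day 28 (-1.27 ± 0.40, adjusted p = 0.0169), and the step to day 45 did not pass (0.90 ± 0.40, adjusted p = 0.0921). The fall to day 28 was lost without replicate 2 of PA day 16 (adjusted p = 0.0735) or of PA day 28 (adjusted p = 0.121), and the step to day 45 passed without replicate 2 of PA day 45 (adjusted p = 0.0365).

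CAV2 had 0 counts in all 8 IVF libraries. In PA cells it stood at 14.1 and 13.5 CPM at day 0, fell to 0.318 and 0.355 at day 16, lay at 0.279 and 0.372 at day 28, and rose to 2.17 and 2.45 at day 45. PA cells were at least 343-fold, 10.6-fold, 10.8-fold and 73.7-fold higher at days 0, 16, 28 and 45. The fall to day 16 was 40.9-fold (log2 fold change -5.34 ± 0.32, adjusted p = 2.16e-07) and the rise to day 45 was 7.09-fold (2.82 ± 0.31, adjusted p = 5.10e-05), while days 16 and 28 overlapped. The gene for its partner CAV1, 16561 bases away, was present in both lines: at day 0 it stood at 101 and 150.5 CPM in IVF cells and 79.6 and 80.2 CPM in PA cells. This difference was under 2-fold (log2 difference -0.65 ± 0.19, adjusted p = 0.0326). At day 16 CAV1 was lower in PA cells (0.863 and 0.960 against 3.67 and 3.68 CPM, log2 difference -2.01 ± 0.27, adjusted p = 1.27e-04), the opposite direction to CAV2. At day 45 it was higher in PA cells, the same direction as CAV2, but under 2-fold (0.89 ± 0.20, adjusted p = 0.00335). IVF cells thus had CAV1 RNA and no counted CAV2 RNA. Beside CAV2, the 8 epithelial markers, all above 0 in each group, summed to 2650 and 2796 CPM in PA cells and 1303 and 1364 CPM in IVF cells at day 0. Of these, KRT8 averaged 1059 CPM in PA cells and 303 in IVF cells, and KRT18 457 and 97.4 CPM. CLDN6 alone went the other way, at 410 CPM in PA cells and 453.5 in IVF cells. The 10 fibroblast and leptomeningeal markers summed to 2149 and 902 CPM in PA cells and 945 and 1373 CPM in IVF cells at day 45. The part of these markers in the levels of CAV2 was not tested. The 8 endothelial markers summed to 11.9 to 27.6 CPM over all libraries, most of it from TIE1 in both lines at days 0 and 16. At day 0, when CAV2 was highest, they summed to 26.0 and 25.9 CPM in PA cells and 24.6 and 23.3 CPM in IVF cells, with CDH5 at 0.157 CPM in PA cells and at 0 in IVF cells. CDH5 was at 0 in both lines on the other days.

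The choice of genes used the levels on each day but did not ask for a course over days. In IVF cells AJAP1, ZFR2, HTATIP2 and AMY2 each rose from day 0 to day 16 and fell from day 16 to day 28. This was true of 4 of the 8 genes and of 625 of all genes tested (3.37%). In PA cells none of the 4 rose from day 0 to day 16. As a share of the PA level, the IVF level of these genes was at most 0.993% at day 0 and reached 43.7% (AJAP1), 27.8% (HTATIP2), 12.0% (AMY2) and 11.8% (ZFR2) at day 16. TSTD1 and CAV2 had 0 counts in both IVF libraries of that day, when PA cells had 216 and 262 counts of TSTD1 and 14 and 17 of CAV2.

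AJAP1 had 0 counts in IVF cells at day 0, 1.25 and 1.34 CPM at day 16, 0.0396 and 0 CPM at day 28 and 0.0654 and 0 CPM at day 45. Its rise to day 16 was at least 32.3-fold (adjusted p = 2.44e-06), and its fall to day 28 was 65.5-fold with a 95% counting interval of 17.5 to 539 (adjusted p = 4.57e-06). In PA cells it stood at 1.85 and 2.26 CPM at day 0, 3.11 and 2.82 at day 16, 14.7 and 16.8 at day 28 and 8.73 and 10.05 at day 45. There it rose from day 16 to day 28 (log2 fold change 2.41 ± 0.29, adjusted p = 9.91e-06), and no other step passed both limits (to day 45 -0.74 ± 0.27, adjusted p = 0.0424). The lines were thus closest at day 16, at a ratio of 2.29. The ratio was 794 (215.6 to 6447) at day 28 and 287 (103 to 1461) at day 45, both resting on 2 or 3 IVF counts.

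ZFR2 in IVF cells stood at 0.163 and 0.0792 CPM at day 0, 2.29 and 1.55 at day 16, 0.0594 and 0 at day 28 and 0.305 and 0.200 at day 45. It rose to day 16 (log2 fold change 3.96 ± 0.41, adjusted p = 1.33e-06), fell 64.7-fold to day 28 (counting interval 21.5 to 312, adjusted p = 3.90e-07) and rose 8.51-fold to day 45 (2.52 to 43.1, adjusted p = 0.00384). In PA cells its 8 libraries stayed between 14.7 and 26.6 CPM, the narrowest course of the 8 genes in that line, and no step passed both limits. These steps were under 2-fold: -0.54 ± 0.21 to day 16 (adjusted p = 0.0441), 0.70 ± 0.21 to day 28 (adjusted p = 0.0116) and -0.54 ± 0.21 to day 45 (adjusted p = 0.0563). The ratio of PA to IVF cells was 194 at day 0, 8.45 at day 16, 888 (299 to 4246) at day 28 and 72.0 at day 45.

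HTATIP2 was the gene whose lines moved in opposite directions from day 0 to day 16 with both steps past both limits. ZFR2 and AMY2 also rose in IVF cells, with PA steps of -0.54 ± 0.21 and -0.37 ± 0.18 that did not pass both limits. HTATIP2 went from 0.489 and 0.660 to 6.70 and 5.73 CPM in IVF cells (log2 fold change 3.43 ± 0.33, adjusted p = 5.73e-07). In PA cells it went from 81.8 and 81.5 to 20.8 and 24.0 CPM (-1.87 ± 0.24, adjusted p = 1.06e-05). From day 16 to day 28 it fell in both, to 0.357 and 0.978 CPM in IVF cells (-3.22 ± 0.31, adjusted p = 1.27e-06) and to 9.77 and 7.85 CPM in PA cells (-1.35 ± 0.24, adjusted p = 2.26e-04). At day 45 it stood at 0.894 and 0.580 CPM in IVF cells and 8.12 and 9.31 CPM in PA cells, and the libraries of days 28 and 45 overlapped in each line. Replicates of IVF day 28 differed, and the fall of IVF cells to that day was -2.66 without replicate 1 and -4.12 without replicate 2. The ratio of PA to IVF cells went from 142 at day 0 to 3.60 at day 16, and was 13.2 at day 28 and 11.8 at day 45.

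AMY2 in IVF cells rose from 2.36 and 1.77 CPM at day 0 to 19.4 and 19.4 at day 16 (log2 fold change 3.23 ± 0.23, adjusted p = 2.46e-08) and fell to 6.91 and 7.26 at day 28 (-1.45 ± 0.20, adjusted p = 3.14e-05), with 5.69 and 3.20 CPM at day 45. In PA cells it stood at 201 and 215 CPM at day 0, 164.5 and 158 at day 16, 107 and 101 at day 28 and 111.5 and 86.3 at day 45, and no step passed both limits. The fall of PA cells from day 16 to day 28 was under 2-fold (-0.64 ± 0.18, adjusted p = 0.00701). The amylase models LOC100521789, LOC110260364 and LOC100522672 on the same stretch of chromosome 4 were also higher in PA cells on each day, with log2 differences of 4.96 to 6.71 at day 0 and 2.61 to 2.93 at day 16. They may share reads with AMY2 and are not separate evidence for it.

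SEZ6L rose strongly from day 0 to day 16 in both lines and peaked at different days. In IVF cells it stood at 0.136 and 0.238 CPM at day 0, 11.0 and 7.28 at day 16, 14.5 and 14.0 at day 28 and 37.1 and 59.6 at day 45. In PA cells it stood at 1.10 and 1.16 CPM at day 0, 44.5 and 37.6 at day 16, 265 and 252 at day 28 and 120.5 and 118 at day 45. It rose from day 0 to day 16 by 5.59 ± 0.36 log2 units in IVF cells (adjusted p = 1.18e-08) and 5.18 ± 0.26 in PA cells (adjusted p = 1.03e-09), and these steps did not differ past the threshold (difference -0.41 ± 0.56, adjusted p = 0.747). The lines then parted. PA cells rose again to day 28 (2.65 ± 0.21, adjusted p = 8.57e-08) and fell to day 45 (-1.12 ± 0.20, adjusted p = 3.65e-04), while IVF cells did not pass at the former step (0.64 ± 0.21) and rose at the latter (1.76 ± 0.20, adjusted p = 1.80e-05). The ratio of PA to IVF cells was 6.05, 4.49, 18.1 and 2.46 in day order. The 9 pan-neuronal markers in the table, all above 0 in each group, summed to 5858 and 5942 CPM in PA cells and 2840 and 3880 CPM in IVF cells at day 28. NEFL and NEFM went the other way that day, at 151 ± 2.78 and 130 ± 5.60 CPM in PA cells against 400 ± 106 and 339 ± 63.6 CPM in IVF cells. The other markers had higher means in PA cells. At day 16 the sum was lower in PA cells (1784 and 1764 against 3961 and 3986 CPM), when SEZ6L was higher there. The part of these markers in the level of SEZ6L was not tested.

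GPX1 had the smallest PA to IVF ratio of the 8 at day 0, and its course was alike in shape in both lines. It stood at 76.0 and 82.1 CPM in IVF cells at day 0, 33.9 and 28.9 at day 16, 20.6 and 17.5 at day 28 and 38.3 and 30.2 at day 45. In PA cells it stood at 243 and 261, 124.5 and 118, 45.9 and 47.8, and 124.5 and 138 CPM on the same days, so the ratio stayed between 2.46 and 3.86. Both lines fell to day 16 (log2 fold change -1.33 ± 0.13 in IVF cells, adjusted p = 6.72e-07, and -1.06 ± 0.13 in PA cells, adjusted p = 5.83e-06). PA cells fell further to day 28 (-1.37 ± 0.13, adjusted p = 4.75e-07) and rose to day 45 (1.49 ± 0.13, adjusted p = 8.94e-07). In IVF cells these steps were -0.72 ± 0.13 (adjusted p = 4.03e-04) and 0.85 ± 0.13 (adjusted p = 1.65e-04), under 2-fold. No difference between the steps of the lines passed both limits for GPX1 at any stage. The PA step minus the IVF step was -0.65 from day 16 to day 28 (adjusted p = 0.0151). From day 28 to day 45 it was 0.64 (adjusted p = 0.0154), and both were under 2-fold. With scaling to total counts the fall of PA cells to day 16 was -0.96 and no longer reached 2-fold.

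In the order of the 8 group means, PA groups took the top 4 places for TSTD1, CAV2, AJAP1, ZFR2, HTATIP2 and AMY2. The choice asked for PA cells above IVF cells on each day, so this order follows in large part from the choice and is a description. Its share over all genes was not computed. SEZ6L and GPX1 were interleaved: IVF cells at day 45 overlapped PA cells at day 16 for SEZ6L, and IVF cells at day 0 stood above PA cells at day 28 for GPX1. A neighbouring pair of groups in this order was taken not to differ where their libraries overlapped. Among the PA groups, days 16 and 28 overlapped for CAV2, days 45 and 16 for ZFR2 and for GPX1, and days 28 and 45 for HTATIP2 and AMY2.

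Counting over the 8 genes, 5 rose and 1 fell from day 0 to day 16 in IVF cells, where 20.2% of all genes rose and 14.0% fell. From day 16 to day 28 1 rose and 4 fell in IVF cells (10.1% and 11.6% of all genes). The rise was that of TSTD1 and rested on the 10 counts of replicate 1 of IVF day 28, without which both groups had 0 counts. From day 28 to day 45 2 rose, SEZ6L and ZFR2, and 0 fell (10.1% and 6.61%), where DESeq2 called 1 fall and 2 genes fell at an unadjusted p below 0.05. In PA cells 1 rose and 4 fell from day 0 to day 16 (18.0% and 14.4%), 2 rose and 3 fell from day 16 to day 28 (18.3% and 16.2%), and 2 rose and 1 fell from day 28 to day 45 (11.0% and 8.25%). The genes therefore did not move as a group in PA cells: the falls of TSTD1, CAV2, HTATIP2 and GPX1 to day 16 stood beside the rise of SEZ6L, and AMY2 and ZFR2 did not pass at any step.

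**Figure D3:**
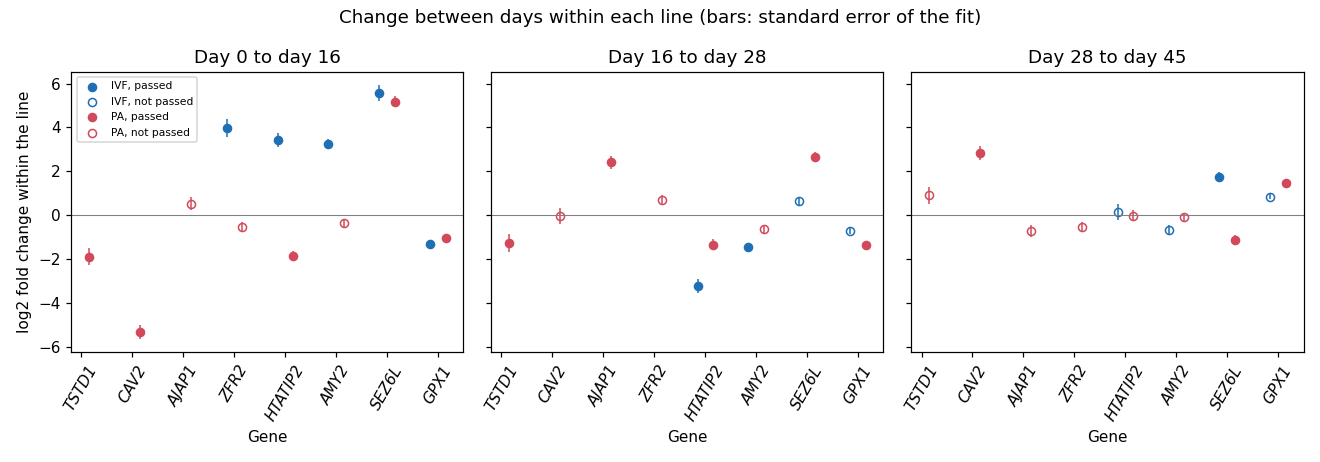
Log2 fold change between successive days (vertical axis) of each gene (horizontal axis) in IVF cells (blue) and PA cells (red), with the standard error as bars. Filled points passed both limits, and steps with 3 or fewer counts in a group are left out. From day 0 to day 16 the blue points of ZFR2, HTATIP2 and AMY2 lie at 3.23 to 3.96 with the red ones below 0.

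The step of PA cells was compared with the step of IVF cells in the same fit. This comparison is the change in the PA against IVF difference between days, so it is built from the levels that chose the genes. The choice fixed the sign of that difference on each day, not its change. The counts and p-values below are therefore not independent of the choice. From day 0 to day 16 the PA step was lower than the IVF step for 4 of the 8 genes (4.56% of all genes) and higher for 0 (2.28%), which also held by DESeq2 and at an unadjusted p below 0.05. Of these, HTATIP2 differed by -5.29 ± 0.40 (adjusted p = 3.13e-06), ZFR2 by -4.50 ± 0.47 (adjusted p = 4.12e-05) and AMY2 by -3.60 ± 0.29 (adjusted p = 4.96e-06). The other was AJAP1, whose IVF group at day 0 had 0 counts. From day 16 to day 28 the PA step was higher for 4 (9.84%) and lower for 1 (5.35%). Among them HTATIP2 differed by 1.87 ± 0.39 (adjusted p = 0.00260) and SEZ6L by 2.01 ± 0.29 (adjusted p = 1.64e-04), and AJAP1, ZFR2 and TSTD1 had a group with at most 3 counts or with 0. From day 28 to day 45 it was higher for 1 (7.87%) and lower for 2 (7.91%), of which SEZ6L differed by -2.88 ± 0.28 (adjusted p = 1.73e-05). The difference of HTATIP2 from day 16 to day 28 was 1.32 without replicate 1 of IVF day 28 and 2.81 without replicate 2. The differences of TSTD1 were lost without replicate 1 of IVF day 28 and under several other omissions.

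The genes next to the 8 were tested in PA against IVF cells, taking the 2 nearest tested genes on each side, 32 genes in all. At day 0, 3 were higher in PA cells, 0 lower and 29 did not pass (3.96% and 2.64% of all genes). At day 16 the counts were 5 higher and 4 lower (3.50% and 5.59%), at day 28 10 and 0 (10.3% and 6.75%), and at day 45 7 and 1 (8.32% and 5.62%). The 4 neighbours of AMY2 include amylase models. By DESeq2 also 0 were lower at days 0 and 28, while 3 were lower on each of these days at an unadjusted p below 0.05. Without the neighbours of AMY2 1 of 28 was higher at day 0, 3 higher and 4 lower at day 16, 7 and 0 at day 28, and 4 and 1 at day 45. The 1 at day 0 was LOC110259291, 2119 bases from HTATIP2, with 0 counts in IVF cells and 33 in PA cells (at least 8.98-fold higher, adjusted p = 0.00596).

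The closest neighbours with known roles did not share the difference at day 0. USF1, a transcription factor 272 bases from TSTD1, stood at 60.9 ± 2.77 CPM in IVF cells and 58.7 ± 0.801 in PA cells (log2 difference -0.05 ± 0.11, adjusted p = 0.823). PRMT3, an arginine methyltransferase 2393 bases from HTATIP2, stood at 33.1 ± 3.86 and 31.6 ± 0.210 CPM (-0.07 ± 0.11, adjusted p = 0.746). RHOA, a small GTPase of the cytoskeleton 1147 bases from GPX1, stood at 279 ± 13.8 and 284 ± 1.54 CPM (0.02 ± 0.09, adjusted p = 0.922). None of these 3 passed both limits on any day. Later in differentiation some neighbours did differ. ATCAY, 6989 bases from ZFR2, was lower in PA cells at day 16 (log2 difference -1.006 ± 0.20) and higher at day 28 (1.795 ± 0.20, adjusted p = 1.35e-05). The former was under 2-fold without replicate 2 of IVF day 16 or of PA day 16 (-0.99 and -0.98). MATK, a kinase gene 11998 bases beyond ZFR2, was higher in PA cells at days 16, 28 and 45 (log2 difference 1.90 ± 0.20, 3.49 ± 0.20 and 1.38 ± 0.18, adjusted p = 1.55e-05, 4.51e-08 and 7.18e-05), and RAX2, a homeobox gene beyond it, had 0 counts in IVF cells and 356 in PA cells at day 28 (at least 124-fold higher, adjusted p = 2.83e-05) and was 12.7-fold higher at day 45 (adjusted p = 0.00198). DBX1, a homeobox gene of neural progenitors 177214 bases from HTATIP2, was higher in PA cells at days 16 and 28 and lower at day 45 (1.40 ± 0.18, 3.36 ± 0.21 and -1.51 ± 0.32), the last lost with only the compared libraries in the fit (adjusted p = 0.0723). MET, a receptor tyrosine kinase 157486 bases from CAV2, stood at -3.21 ± 0.23 at day 16, 1.12 ± 0.20 at day 28 and 1.64 ± 0.21 at day 45, the middle value falling to 0.99 without replicate 1 of PA day 28. F11R, a tight junction protein 22360 bases from TSTD1, was higher at days 16 and 28 (1.37 ± 0.18 and 1.82 ± 0.22).

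**Figure D4:**
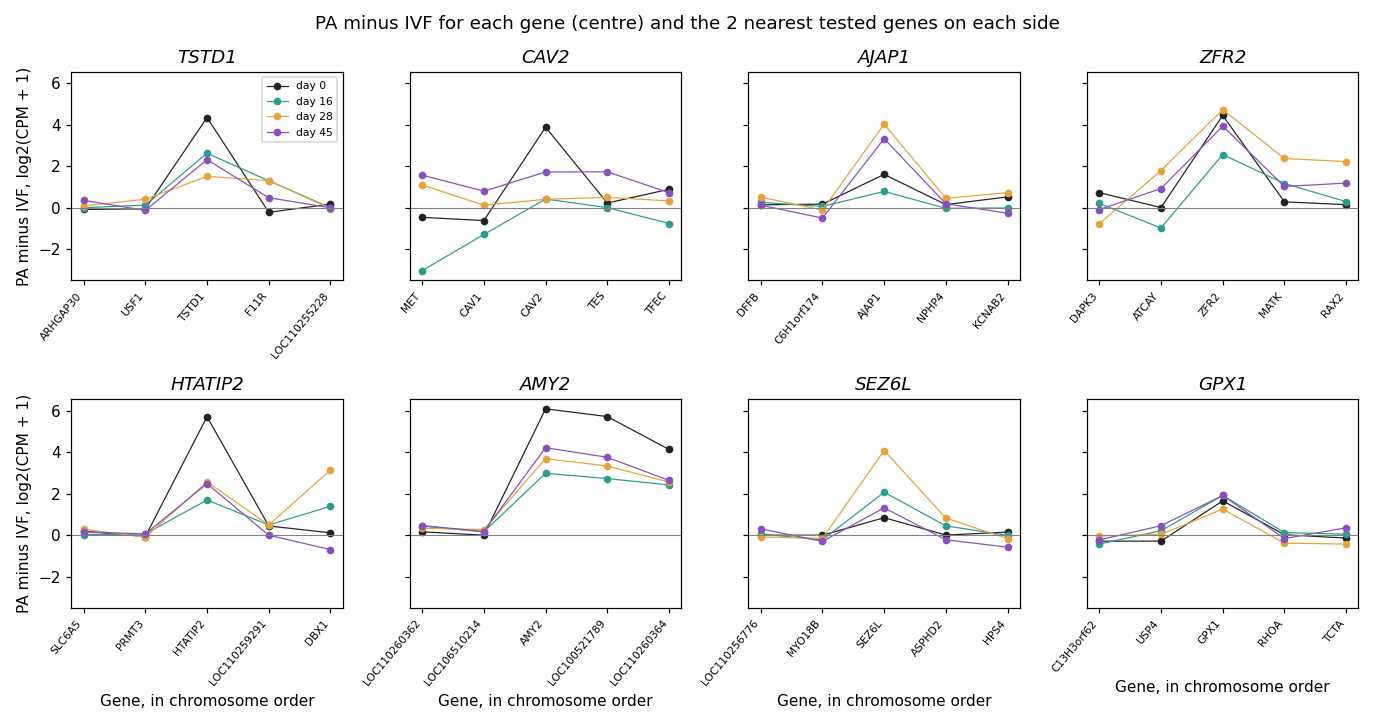
PA minus IVF difference of mean log2(CPM + 1) (vertical axis) for each of the 8 genes (centre of its panel) and the 2 nearest tested genes on each side, in chromosome order (horizontal axis), with a line for each day. The black line of day 0 is highest at the centre of each panel, and in the AMY2 panel amylase models rise with it. The panels of TSTD1, CAV2, ZFR2 and HTATIP2 show neighbours that differ at later days.

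Genes of the same families and pathways, 94 tested genes in 9 lists, differed in both directions. In PA against IVF cells 2 were higher and 2 lower at day 0 (3.96% and 2.64% of all genes), 4 and 6 at day 16 (3.50% and 5.59%), 6 and 11 at day 28 (10.3% and 6.75%), and 9 and 3 at day 45 (8.32% and 5.62%). Nothing particular to these lists is read from counts of this size. Their median log2 difference was 0.07, 0.11, -0.23 and 0.02, where that of all genes was 0.01, 0.01, 0.00 and 0.03. None of the 9 tested sulfurtransferase and sulfide oxidation genes, the 7 selenoprotein synthesis genes or the 4 relatives of ZFR2 with a DZF domain passed both limits on any day in edgeR's quasi-likelihood test or by DESeq2, although some had an unadjusted p below 0.05: in day order 5, 3, 5 and 4 of the sulfur genes, 2, 2, 2 and 1 of the selenoprotein genes, and 0, 0, 3 and 3 of the DZF genes. TST, the rhodanese closest in function to TSTD1, stood at 7.81 ± 0.328 CPM in IVF cells and 13.2 ± 0.0924 in PA cells at day 0 (adjusted p = 0.0932), and ZFR at 160 ± 5.03 and 138 ± 3.86 CPM (adjusted p = 0.215).

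Among 26 tested genes of glutathione peroxidases and peroxide removal, 1 was higher at day 0 (3.96% of all genes), 2 higher and 1 lower at day 16 (3.50% and 5.59%), 1 and 4 at day 28 (10.3% and 6.75%), and 2 and 1 at day 45 (8.32% and 5.62%). The higher gene at days 0 and 28 was GPX2, named here after its values were seen, with 0 and 1 IVF counts and 45 and 57 PA counts. Its call at day 0 was lost on leaving out any of the 4 libraries of that day. At day 28 it was lost without either IVF replicate or replicate 2 of PA cells (log2 difference 7.79, 4.76 and 5.36). GPX2 was also called at day 45 (3.17 ± 1.18), but not with DESeq2, and the difference was 1.15 without replicate 2 of PA day 45. GPX7 and GPX8, peroxidases of the endoplasmic reticulum, were lower in PA cells at day 28 (log2 difference -2.01 ± 0.16, adjusted p = 8.89e-07, and -1.43 ± 0.15, adjusted p = 7.54e-06), when GPX1 was higher, and GPX7 was lower at day 45 as well (-1.26 ± 0.16, adjusted p = 4.82e-05). SLC7A11, the cystine importer for glutathione synthesis, was lower in PA cells at day 16 (-2.46 ± 0.19, adjusted p = 1.37e-06) and at day 28 (-1.005 ± 0.19, adjusted p = 7.17e-04), the latter under 2-fold with DESeq2 and with RLE scaling. Of 10 caveola genes 0 passed at day 0, by edgeR or by DESeq2, with 6 at an unadjusted p below 0.05. At day 16 1 was higher and 3 lower (3.50% and 5.59% of all genes), at day 28 4 were lower, or 3 by DESeq2 (6.75%), and at day 45 2 were higher and 1 lower (8.32% and 5.62%). CAVIN2, a coat protein of caveolae, had 0 counts in both lines at day 0 and was lower in PA cells at days 16, 28 and 45 (-2.72 ± 0.30, -2.47 ± 0.27 and -1.03 ± 0.25, adjusted p = 5.14e-05, 2.20e-05 and 0.00693). Its call at day 45 was lost without replicate 2 of IVF day 45 (-0.91) or of PA day 45 (-0.63) and with total counts (-0.95). EHD2, an ATPase at the neck of caveolae, was higher at day 16 (1.78 ± 0.22, adjusted p = 7.61e-05), and ROR1, a receptor linked to caveolae, was higher at day 45 (2.75 ± 0.22, adjusted p = 1.45e-06).

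Of the 4 tested genes around SEZ6L, 1 was higher at day 16, 2 at day 28 and 1 at day 45 (3.50%, 10.3% and 8.32% of all genes). SEZ6 and SEZ6L2, its paralogs, were higher in PA cells at day 28 (log2 difference 2.56 ± 0.24, adjusted p = 2.42e-06, and 1.28 ± 0.13, adjusted p = 6.61e-06), the day on which SEZ6L itself and the summed pan-neuronal markers were highest there. BACE2, a relative of the protease BACE1, was higher at days 16 and 45 (2.34 ± 0.24 and 1.31 ± 0.18). Of 10 adherens junction genes 1 was lower at day 0 (2.64% of all genes), 1 lower at day 16 (5.59%), 1 higher and 2 lower at day 28 (10.3% and 6.75%) and 1 higher at day 45 (8.32%). CDH1, the epithelial cadherin, was higher in PA cells at day 45 (1.88 ± 0.15, adjusted p = 1.42e-06), CTNNA2, a neuronal catenin, was higher at day 28 (1.48 ± 0.14, adjusted p = 3.47e-06), and PTPRM, a phosphatase at junctions, was lower at days 0, 16 and 28 (-1.11 ± 0.25, -1.11 ± 0.13 and -1.16 ± 0.12). At day 0 its call was lost without replicate 1 of IVF day 0 (adjusted p = 0.0689) or of PA day 0 (adjusted p = 0.0649). Of 10 genes of starch and glycogen digestion 1 was higher and 1 lower at day 0 (3.96% and 2.64%), 1 lower at day 16 (5.59%), and 2 higher and 1 lower at day 28 (10.3% and 6.75%) and at day 45 (8.32% and 5.62%). MGAM, an intestinal enzyme that completes starch digestion, was lower in PA cells on all 4 days (-1.25 ± 0.23, -1.69 ± 0.24, -1.67 ± 0.24 and -1.42 ± 0.24, adjusted p = 0.00219, 1.81e-04, 8.22e-05 and 4.17e-04), opposite to AMY2. PYGM, muscle glycogen phosphorylase, was higher at days 0, 28 and 45 (2.39 ± 0.37, 2.34 ± 0.64 and 1.39 ± 0.46, adjusted p = 5.92e-04, 0.00950 and 0.0286). The call at day 28 was lost without replicate 1 of PA day 28 (adjusted p = 0.0998), and that at day 45 without either IVF replicate (adjusted p = 0.146 and 0.0698) or replicate 2 of PA day 45 (adjusted p = 0.0682). GBE1, the glycogen branching enzyme, was higher at day 45 (1.11 ± 0.20, adjusted p = 7.34e-04), under 2-fold without replicate 1 of IVF day 45 or of PA day 45 (0.90 and 0.98). Of 14 importin and Tat-interacting genes 1 passed on any day: KPNA2, an importin of dividing cells, was higher in PA cells at day 45 (1.77 ± 0.09, adjusted p = 2.25e-08), when the summed cell cycle markers stood at 513 and 234 CPM in PA cells and 156 and 153 CPM in IVF cells.

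The genes whose level over the 16 libraries was most like each of the 8 are given as a description, since the difference between the lines that chose the 8 enters these correlations. SEZ6L was most like BEAN1 (Pearson r = 0.99 of log2(CPM + 1)), LRFN2 and PLPPR4 (both 0.969), of which PLPPR4 stood at 48.0 CPM in PA cells and 12.3 CPM in IVF cells at day 28. GPX1 was most like VWA3B (0.94), MYH11 (0.936) and TXNRD1 (0.927), the last of which is the cytosolic thioredoxin reductase, itself a selenoprotein, at 181 CPM in PA cells and 90.7 CPM in IVF cells at day 0. CAV2 was most like SDSL (0.981), ZNF594 (0.943) and DMRT3 (0.942), and TSTD1 like SLC46A2 (0.974), LENEP (0.964) and ZNF883 (0.955). For AJAP1 these were CRTAC1 (0.95), ZFP37 (0.934) and AK5 (0.921), for ZFR2 ZC3HAV1L (0.942), ZNF883 (0.936) and ZFP37 (0.934), for HTATIP2 SLC46A2 (0.93), SAL1 (0.911) and CCDC17 (0.903), and for AMY2 ZNF883 (0.928), LENEP (0.92) and FAAH2 (0.893). ZNF883 and SLC46A2 had 0 counts in all IVF libraries, as CAV2 did, and averaged at most 1.17 CPM in any PA group. Within the 8 IVF libraries, AJAP1, ZFR2 and HTATIP2 correlated with each other at r = 0.965 to 0.98 and with AMY2 at 0.811 to 0.869. Within the 8 PA libraries TSTD1, HTATIP2 and AMY2 correlated at 0.879 to 0.952, and SEZ6L ran against them at -0.985 to -0.901. These libraries share days and lines and are not independent points.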

How the data were processed

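RNA was sequenced in 16 libraries, prepared with a stranded poly-A kit, 2 for each of 8 groups of line and day. Per the labels and the study's methods, the authors used Trimmomatic 0.38, HISAT2 2.1.0, SAMtools 1.9 and StringTie 2.1.3b on the Sscrofa11.1 genome. The strand setting of the counting is not given in the sources used here. The deposited counts are whole reads per gene and carry all tests. The deposited TPM values, which the authors scaled to gene length and library, were used only for levels between genes, and the deposited FPKM values were not used. Of 28232 rows, 28208 matched the RefSeq annotation, and 24 unnamed mitochondrial RNA rows held 0.0474% to 0.189% of the counts of a library.

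Groups were taken from the labels. Counts were scaled by TMM, with factors from 0.907 to 1.11, and CPM was computed from these library sizes. Genes were filtered with filterByExpr over the 8 groups, which left 18528, and fitted with edgeR 4.0.16 (R 4.3.3, limma 3.58.1) as 8 group means with 8 residual degrees of freedom. The quasi-likelihood test with Benjamini-Hochberg adjustment over all tested genes gave every adjusted p, and a gene rose, fell or passed at an adjusted p below 0.05 and at least 2-fold. The model was tested on simulated data. Alternatives were DESeq2 1.42.0, other scalings, filters and fits, a replicate block and leaving out each library. With 0 counts in a group, a fold is a lower bound from 3 counts over the group, and with 1 to 3 counts it has a 95% counting interval. Bounds and intervals cover counting error only.

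The 8 genes and all lists were chosen with earlier results of these data known. Named besides them are the 3 genes most like each by Pearson correlation of log2(CPM + 1), the 2 nearest tested genes on each side, up to 3 called genes of each of the 9 family lists, and markers of 11 lists. Replicate numbers shared by groups did not pair the libraries: over 28 pairs of groups the correlation of deviations was -0.0502 to 0.116. Tables and figures used Python 3.11.15, pandas 2.3.3, numpy 2.4.6, scipy 1.17.1 and matplotlib 3.10.9.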

Additional observations from a re-analysis of the deposited data

Results flagged for a closer look

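The steps of the lines differed past the threshold, by a test of the difference itself, in 6 cases where every group had more than 3 counts. These differences draw on the PA and IVF levels that chose the genes, so their calls are not independent of the choice. The alternatives below use the same levels and show only how far the processing moved the values. From day 0 to day 16 the PA step minus the IVF step was -5.29 on the log2 scale for HTATIP2, -4.50 for ZFR2 and -3.60 for AMY2. Over the alternatives these ranged from -5.53 to -5.10 (16 alternatives), from -5.09 to -4.07 (15) and from -3.82 to -3.40 (16), and each kept its call in all of them. From day 16 to day 28 it was 1.87 for HTATIP2 (1.32 to 2.81) and 2.01 for SEZ6L (1.68 to 2.28), and from day 28 to day 45 it was -2.88 for SEZ6L (-3.18 to -2.52), with the call kept in 16 of 16 alternatives for each. The reads of AMY2 may be shared with other amylase models. No explanation of these differences was tested.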

How the results depend on the processing

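Of the values that answer a comparison, 352 kept their size within 1.5 times or their call under an alternative and 34 moved. Without a fold minimum, 11348, 8702 and 7774 genes passed over the 3 steps of IVF cells in day order, 11049, 11206 and 8161 over those of PA cells, 1972, 5300 and 5738 for the difference of steps, and 3084, 3785, 7419 and 7220 for PA against IVF cells at days 0, 16, 28 and 45. Of neighbours 6, 17 and 15 then passed at days 0, 28 and 45, of family genes 27, 26, 52 and 44 on the 4 days, and of the 8 genes 4 from day 28 to day 45 in IVF cells. Among genes counted in every library only 4 of the 8 (HTATIP2, AMY2, SEZ6L and GPX1) were tested, and 2 passed from day 16 to day 28 and 1 from day 28 to day 45 in IVF cells, 3 from day 0 to day 16 and 3 from day 16 to day 28 in PA cells, and 2, 2 and 1 for the difference of steps. Of family genes 2 then passed at day 0 and 11 at day 28. With only the compared libraries in the fit 1 passed from day 28 to day 45 in IVF cells. Leaving out 1 library gave 2 to 5 family genes at day 0, and 1954 to 3331 genes in all at day 45. Of the 24 genes most like the 8, 6 stayed with Spearman correlation and 12 with log2(CPM + 0.1).

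Some changes that had not passed took the other sign. For CAV2 from day 16 to day 28 in PA cells these were 0.041 with RLE scaling, 0.035 with total counts and 0.041 with DESeq2, and leaving out each library gave -0.27 to 0.14. For HTATIP2 from day 28 to day 45 in PA cells they were 0.031 with total counts, 0.018 without the filter and 0.033 among genes counted in every library, with -0.16 to 0.15 on leaving out each library. Leaving out each library gave -0.42 to 1.03 for HTATIP2 from day 28 to day 45 in IVF cells, -1.07 to 0.40 for its difference of steps there, and -0.27 to 0.10 for AMY2 from day 28 to day 45 in PA cells. The causes were not tested.

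The replicate block, for numbers that do not pair the libraries (median r 0.00645, 1 of 28 above 0.1), gave 6, 4, 2, 5, 5 and 3 of the 8 genes over the steps of IVF and then PA cells, and the rise of TSTD1 to day 28 in IVF cells did not pass (adjusted p = 0.0544). With 2 libraries a group and 3 counts equal to 0.0575 to 0.0764 CPM, the IVF levels of TSTD1, CAV2 and AJAP1 below that are not resolved. Calls of neighbour and family genes were lost in 60 cases over the alternatives, and in 0 cases did one change sign.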
